A study of Homo sapiens with 6 samples.

Results

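The DLX and MSX homeobox genes were examined for H3K27ac in cells of SU-CCS-1, a cell line established from clear cell sarcoma (CCS), a soft tissue tumour of humans. H3K27ac is a histone acetylation found at promoters and enhancers in use, and it was measured by chromatin immunoprecipitation and sequencing (ChIP-seq). The 6 samples were 3 H3K27ac replicates and 3 Input replicates, the latter being sonicated chromatin without immunoprecipitation. All of them came from the same line, which carries the EWSR1::ATF1 fusion gene, with no treatment given in the labels, so the design held no other genotype, tissue or time point. The deposited data were 1 merged list of 30784 peaks, with positions and names only. The list gave no read depth, signal, p-value or value per replicate, so no replicate error could be computed and no test was made. The members were 8 of the 20015 protein-coding genes of GENCODE version 44, chosen by name: DLX1, DLX2, DLX3, DLX4, DLX5, DLX6, MSX1 and MSX2. Peaks were assigned to a gene when they overlapped its body or lay within 50 kb of it, and 5 of the 30784 peaks met this rule. A promoter peak had at least 1 base within 3 kb of any annotated start site of the gene.

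The DLX genes are the vertebrate relatives of Distal-less and the MSX genes those of the muscle segment homeobox gene of flies. Both families encode homeodomain transcription factors of the NKL class that act in the neural plate border, the neural crest, the jaw, teeth, limbs and bone, and the DLX factors also direct GABAergic neurons of the forebrain. MSX proteins act mainly as repressors and can bind DLX proteins, which act mainly as activators. The DLX genes lie in convergent pairs, DLX1 with DLX2, DLX3 with DLX4 and DLX5 with DLX6, and the members of a pair share enhancers. BMP signalling is a known inducer of both families.

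The sequences on which the results turn come from the start sites and from the space between DLX5 and DLX6. RefSeq promoters (build GRCh38.p14, from 250 bases before to 50 bases after the start) were matched for 5 of the 8 genes, namely DLX1, DLX2, DLX6, MSX1 and MSX2, and not for DLX3, DLX4 and DLX5. The 250 bases upstream of the start are shown 5′ to 3′ on the strand of the gene. DLX6 (chr7:97005303-97005552, plus strand) is shown because it held the ATF/CREB site TGACGTCA, in capitals, inside a peak.
DLX6: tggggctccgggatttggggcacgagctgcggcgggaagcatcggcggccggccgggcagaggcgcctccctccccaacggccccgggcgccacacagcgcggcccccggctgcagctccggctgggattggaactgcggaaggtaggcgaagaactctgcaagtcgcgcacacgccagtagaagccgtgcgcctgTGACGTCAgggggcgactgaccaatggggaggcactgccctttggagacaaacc
MSX2 (chr5:174724332-174724581, plus strand) is shown because it held the homeodomain core TAATTA, in capitals, just outside the MSX2 peak.
MSX2: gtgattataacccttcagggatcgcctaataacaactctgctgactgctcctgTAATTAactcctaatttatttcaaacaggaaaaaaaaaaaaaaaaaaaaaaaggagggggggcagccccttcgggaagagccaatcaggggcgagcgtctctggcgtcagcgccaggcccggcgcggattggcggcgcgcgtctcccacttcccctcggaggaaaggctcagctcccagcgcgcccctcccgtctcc
MSX1 (chr4:4859415-4859664, plus strand) and DLX2 (chr2:172102901-172103150, minus strand) are a CpG-rich start inside a peak and one far from any peak. Capitals mark CG.
MSX1: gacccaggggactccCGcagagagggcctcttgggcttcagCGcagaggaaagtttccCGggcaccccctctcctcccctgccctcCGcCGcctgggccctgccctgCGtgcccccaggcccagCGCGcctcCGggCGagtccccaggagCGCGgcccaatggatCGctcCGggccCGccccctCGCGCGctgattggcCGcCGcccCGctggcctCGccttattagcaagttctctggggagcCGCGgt
DLX2: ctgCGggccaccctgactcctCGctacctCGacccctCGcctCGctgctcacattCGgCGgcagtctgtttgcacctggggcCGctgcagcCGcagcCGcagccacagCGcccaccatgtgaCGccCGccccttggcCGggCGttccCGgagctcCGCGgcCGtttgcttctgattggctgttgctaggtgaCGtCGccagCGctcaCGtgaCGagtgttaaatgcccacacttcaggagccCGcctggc
The last sequence is the central 300 bases of the peak between DLX6 and DLX5 (chr7:97016896-97017195, hg38, plus strand), the only peak of these loci that lay outside every annotated gene. Capitals again mark CG.
between DLX6 and DLX5: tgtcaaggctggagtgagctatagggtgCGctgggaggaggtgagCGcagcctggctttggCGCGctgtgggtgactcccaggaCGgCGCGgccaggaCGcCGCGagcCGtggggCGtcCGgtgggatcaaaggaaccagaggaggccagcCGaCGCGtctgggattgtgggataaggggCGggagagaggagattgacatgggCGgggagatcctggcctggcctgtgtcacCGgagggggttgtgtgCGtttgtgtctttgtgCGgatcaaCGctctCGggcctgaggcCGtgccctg

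H3K27ac peaks divided the family into 4 genes with a peak at the start site and 4 genes with no peak in their whole locus. DLX5, DLX6, MSX1 and MSX2 each had 1 promoter peak, and DLX1, DLX2, DLX3 and DLX4 had none. The share was 4 of 8 (50%, 95% Wilson interval 21.5 to 78.5, which covers counting error only), beside 63.4% of all protein-coding genes. The same 4 genes had a peak over the gene body, beside 64.7% of all protein-coding genes. They were also the only members with any peak within 50 kb, beside 83.1% of all protein-coding genes. Each of these counts was 4 of 8, so the interval is the same. The background shares for promoter peaks and gene body peaks lay inside it, and the 83.1% for peaks within 50 kb lay above it. The genes of a DLX pair share a locus and are not independent, so the interval is too narrow. Whether the 83.1% would lie above an interval that allows for this was not tested. Counted by locus, 3 of 5 held a peak. Acetylation at the other 4 genes was not detectable in this list, whose calls depend on a cutoff. The study's methods state a p-value cutoff and an approximate number of reads per sample. The list does not give the depth at these loci, which would set the limit.

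The 5 loci, each a gene or pair with its flanks, spanned 574.8 kb and held 7050 bases in peaks, or 1.23% of their length. The DLX5 and DLX6 locus held 3 peaks and 5580 of these bases, and MSX1 and MSX2 held 1 peak each, of 650 and 820 bases. Per gene, 5.34% of the DLX5 locus and 5.29% of the DLX6 locus lay in peaks, above the median of 2.14% over protein-coding genes. The MSX2 locus at 0.771% and the MSX1 locus at 0.623% lay below that median. The median protein-coding gene had 3 peaks in its locus, the number found for DLX5 and for DLX6. Their bodies and flanks overlap, so those 3 peaks are the same for both genes.

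**Figure D1:**
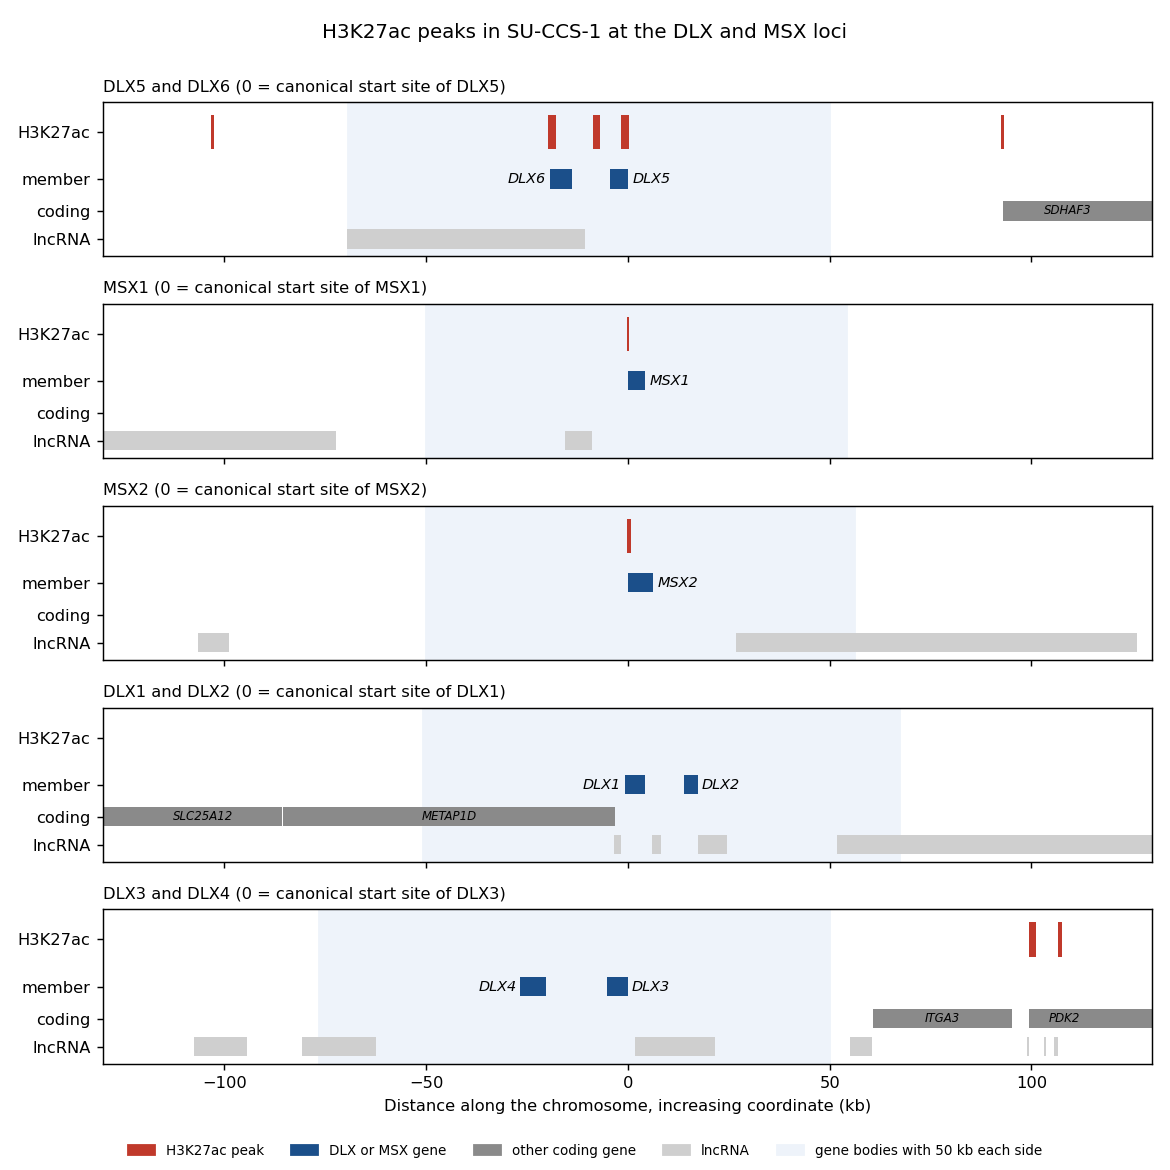
Map of H3K27ac peaks (red) in 5 windows around the DLX and MSX genes (blue), with distance along the chromosome in kb on the horizontal axis, other protein-coding genes in dark grey, lncRNAs in light grey and the 50 kb loci shaded. The shaded DLX5 and DLX6 locus holds 3 peaks, those of MSX1 and MSX2 hold 1 each, and those of DLX1 with DLX2 and DLX3 with DLX4 hold 0.

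DLX6 carried the widest peak of the family. DLX6 (ENSG00000006377.11, chr7:97005553-97011040, plus strand) directs lower jaw and limb development together with DLX5. Its promoter peak, chr7:97004941-97007050, measured 2110 bases, and 78.7% of the promoter peaks of protein-coding genes were narrower. It reached from 612 bases upstream to 1497 bases downstream of the canonical start and covered 1419 bases of DLX6 exon. The other 691 bases were annotated as intron. Of these, the 612 upstream of DLX6 are intron of the antisense lncRNA DLX6-AS1 and not of DLX6. Of the 3 annotated DLX6 starts, 2 lay inside the peak. The peak also lay wholly within the body of DLX6-AS1, which runs through the locus, and 624 bases from 1 of its 11 start sites. It was therefore a promoter peak of DLX6-AS1 as well, and the list cannot assign it to either gene.

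DLX5 (ENSG00000105880.7, chr7:97020396-97024950, minus strand), a factor of the neural plate border and of osteoblasts, had the next widest promoter peak. It lay at chr7:97023211-97025050 and measured 1840 bases, with 71.0% of promoter peaks narrower. All 3 annotated starts lay inside it. The peak was placed mostly downstream, from 219 bases before to 1620 bases after the canonical start. It covered 682 bases of exon, 1058 bases of intron and 100 bases upstream of the gene.

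The third peak of the pair, chr7:97016231-97017860, measured 1630 bases, and 71.1% of all 30784 peaks were narrower. It was wholly intergenic, 2536 bases from the DLX5 body, 5191 bases from the DLX6 body and 2143 bases from the nearest start of DLX6-AS1. The nearest DLX5 start was 6967 bases away, beyond the promoter window. The peak was thus counted in the locus but not at a member promoter, and it lay partly inside the promoter window of DLX6-AS1. Its GC content was 60.9% and its CpG ratio, observed over expected, was 0.613. The corresponding medians over all peaks were 53.6% and 0.407. Its central stretch, printed above, had 24 CG and a ratio of 0.808.

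The convergent pairs differed in the space between their genes. The intergenic stretch measured 9.36 kb between DLX5 and DLX6, 9.76 kb between DLX1 and DLX2 and 15.045 kb between DLX3 and DLX4. Only the DLX5 and DLX6 stretch held a peak, and that peak covered 1630 of its bases. The 3 peaks of this pair were separated by gaps of 9180 and 5350 bases. Joining peaks within the stitching distance of the study's methods gave 1 stitched region, chr7:97004941-97025050, with a span of 20.1 kb and a summed peak width of 5.58 kb, or 27.7% of the span. It ranked 1557 of 17049 stitched regions by summed width, which places it in the first 9.13%. This rank depends on the stitching distance. At 5 kb the 3 peaks stood apart and ranked 6101, 7528 and 8900 of 20426, and at 25 kb the joined region ranked 1757 of 13629. The MSX2 and MSX1 peaks stood alone and ranked 13329 and 14419. Ranks by width are not ranks by signal, which the list did not hold.

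MSX1 and MSX2 had narrow peaks at their starts. MSX1 (ENSG00000163132.8, chr4:4859665-4863936, plus strand) acts in tooth and palate development. Its peak, chr4:4859401-4860050, measured 650 bases, and 17.6% of promoter peaks were narrower. It ran from 264 bases upstream to 385 bases downstream of the canonical start and covered 386 bases of the first exon and no intron. The other annotated MSX1 start, of a transcript without a defined coding sequence, lay outside it. MSX2 (ENSG00000120149.9, chr5:174724582-174730896, plus strand) acts in the closure of skull sutures. Its peak, chr5:174724451-174725270, measured 820 bases, with 26.4% of promoter peaks narrower. It ran from 131 bases upstream to 688 bases downstream and held both annotated starts, with 486 bases of exon and 203 bases of intron.

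The 4 promoter peaks had a median width of 1330 bases, beside a median of 1320 bases (quartiles 790 and 1970) over the 15916 promoter peaks of protein-coding genes. The MSX1 peak was below the lower quartile and the MSX2 peak between it and the median, while the DLX5 and DLX6 peaks were above the median. All 4 peaks extended farther downstream than upstream of the canonical start. Over the 10717 protein-coding genes with the canonical start inside a peak, the median extent was 668 bases upstream and 847 bases downstream. Each of the 4 members had less than the upstream median. DLX5 and DLX6 had more than the downstream median, and MSX1 and MSX2 had less.

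**Figure D2:**
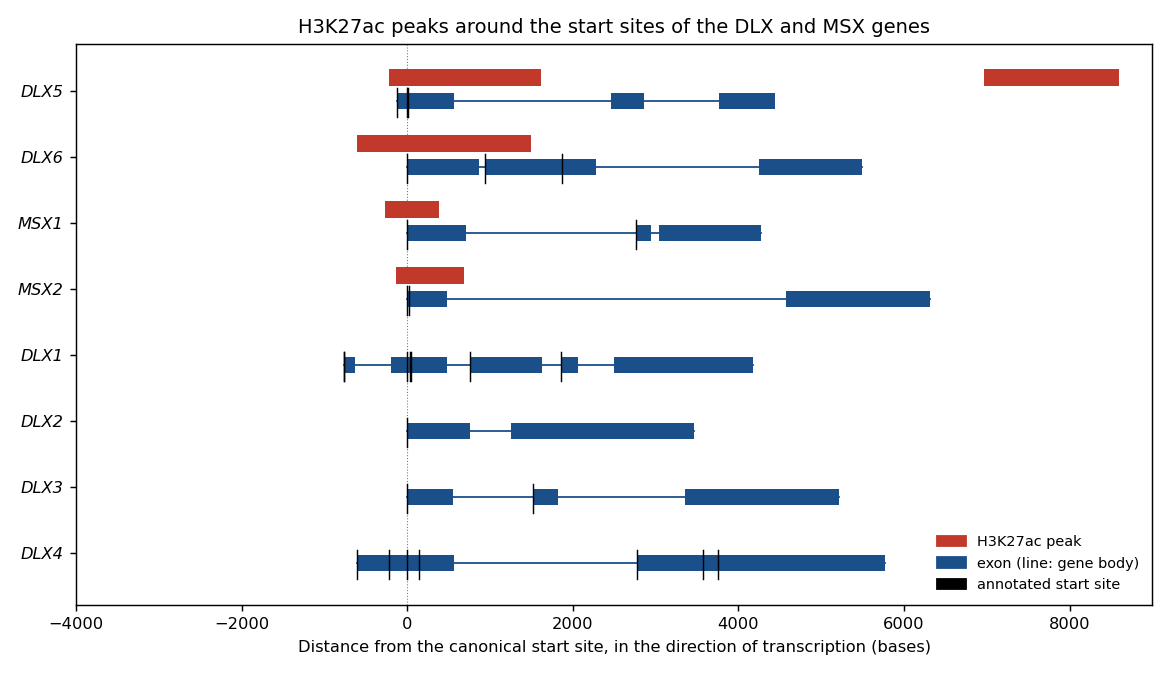
H3K27ac peaks (red) drawn above the exons (blue boxes) and annotated start sites (black ticks) of the 8 genes, against distance in bases from the canonical start in the direction of transcription. The peaks of DLX5, DLX6, MSX1 and MSX2 cross the start and reach 1620, 1497, 385 and 688 bases downstream, the intergenic peak lies beyond the 3′ end of DLX5, and no peak is drawn at DLX1 to DLX4.

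The order of coverage around the starts was DLX5, DLX6, MSX2 and MSX1. The windows of all annotated starts of a gene were joined. They measured 6124 bases for DLX5, 7873 for DLX6, 6021 for MSX2 and 8764 for MSX1. The share therefore depends on the annotated starts as well as on peak width, and DLX6 had a wider peak than DLX5. Peaks covered 30.0% of the bases within 3 kb of a DLX5 start, and 90.3% of protein-coding genes had a lower share. The shares were 26.8% for DLX6, 13.6% for MSX2 and 7.42% for MSX1, with 88.0%, 70.9% and 55.2% of genes lower. The median protein-coding gene had 5.90%, and the median among genes with a promoter peak was 12.4%. By that second median, DLX5, DLX6 and MSX2 were above and MSX1 was below. DLX1, DLX2, DLX3 and DLX4 were at 0, as were 36.6% of protein-coding genes. Over the gene bodies, the share in peaks was 38.2% for DLX5, 27.3% for DLX6, 10.9% for MSX2 and 9.04% for MSX1. Neighbours in this order could not be compared beyond their spread, because the merged list had no spread over samples.

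**Figure D3:**
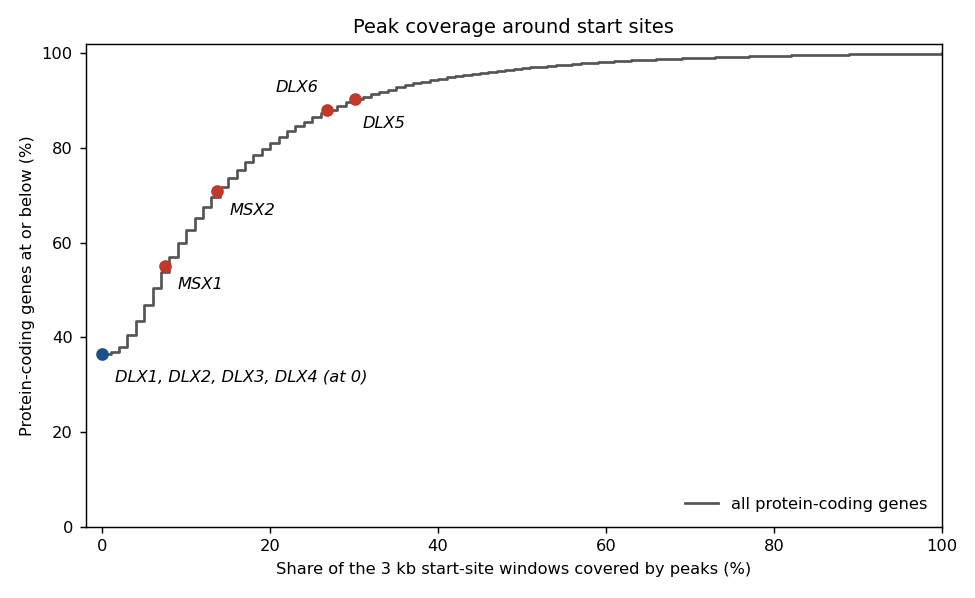
Cumulative share of the 20015 protein-coding genes (vertical axis, %) by the share of their 3 kb start-site windows covered by peaks (horizontal axis, %), with the 8 genes as points. DLX5 at 30.0% and DLX6 at 26.8% lie on the upper part of the curve, MSX2 at 13.6% and MSX1 at 7.42% on its steep part, and DLX1 to DLX4 at 0.

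DLX1 and DLX2 lay in a long stretch without peaks. DLX1 (ENSG00000144355.15, chr2:172084740-172089677, plus strand) and DLX2 (ENSG00000115844.11, chr2:172099438-172102900, minus strand) direct the differentiation and migration of forebrain interneurons. The stretch, chr2:171923531-172427430, measured 503.9 kb, and 3.71% of the gaps between neighbouring peaks in the list were at least as long. The median gap was 17900 bases. The nearest peak lay 161 kb from DLX1 and 176 kb from DLX2, at the start of HAT1, a histone acetyltransferase gene. A nearest peak at least as far was found for 7.37% of protein-coding genes in the case of DLX1 and for 6.81% in the case of DLX2. METAP1D, which encodes a mitochondrial methionine aminopeptidase, was the only other protein-coding gene that reached into any of the 5 loci, and it had no peak either. The lncRNA DLX2-DT, whose first exon shares 145 bases with the DLX2 upstream sequence printed above, had none.

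DLX3 and DLX4 lay in a shorter stretch without peaks. DLX3 (ENSG00000064195.7, chr17:49990005-49995224, minus strand) acts in skin, hair and teeth, and DLX4 (ENSG00000108813.12, chr17:49968588-49974959, plus strand) is known from the placenta. The stretch, chr17:49851561-50094520, measured 243 kb, and 8.22% of gaps were at least as long. For DLX3 the nearest peak was 99.3 kb away, at the start of PDK2, a pyruvate dehydrogenase kinase gene. For DLX4 it was 117 kb away, at chr17:49851121-49851560, with TAC4 as the nearest protein-coding gene. Nearest peaks at least as far were found for 10.99% and 9.77% of protein-coding genes.

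The 50 kb limit fell between well separated distances. The farthest peak inside it, measured from a single gene, was the DLX6 peak at 13.3 kb from DLX5. The nearest outside it was chr7:96921581-96922150, of 570 bases, 83.4 kb from DLX6. It was followed by chr7:97117281-97117980, of 700 bases, 92.3 kb from DLX5 and at the start of SDHAF3, and by the PDK2 peak at 99.3 kb from DLX3. The nearest outside peaks of MSX1 and MSX2 were 187 kb and 305 kb away.

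CpG content did not separate the members with a peak from those without. A start was called CpG-rich when the 500 bases on each side had at least 50% GC and a CpG ratio of at least 0.6. This class was chosen after the data were seen. By this measure 7 of the 8 members were CpG-rich, all but DLX3 with a ratio of 0.562. A promoter peak was present in 4 of these 7, beside 82.8% of the 12966 CpG-rich protein-coding genes. MSX2 had the highest ratio, 0.979. DLX1 at 0.793 and DLX2 at 0.753, both without a peak, were above DLX5 at 0.702, MSX1 at 0.6997 and DLX6 at 0.608, all with one. DLX4 stood at 0.686. The sequences printed above for MSX1 and DLX2 held 24 and 25 CG respectively in 250 bases, and all 250 bases of the former and none of the latter lay in a peak.

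The study examined sites of the ATF/CREB and AP1 types, and these were searched on both strands in the 5 peaks. TGACGTCA occurred once, at chr7:97005499-97005506 in the DLX6 peak, from 54 to 47 bases upstream of the DLX6 start. The same 8 bases are a match to the flexible form TGANNTCA, so the 2 matches overlap. TGACGTCA was present in 2.58% of all peaks and in 1.85% of the 35116 RefSeq promoters, and TGANNTCA in 40.8% of peaks. The AP1 site TGAGTCA, found in 16.8% of all peaks, was not in any of the 5 peaks. The homeodomain core TAATTA, found in 17.8% of all peaks, was not in any of them. Series of TGA or TCA triplets, longer than 4 triplets and spaced by at most 5 bases, were found in 6.74% of all peaks and in none of these.

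In the RefSeq promoters of the members, MSX2 held 1 TAATTA, from 197 to 192 bases upstream of the start. The MSX2 peak began 131 bases upstream, so that match lay outside it, and 181 of the 300 promoter bases lay inside. TAATTA was present in 4.84% of RefSeq promoters. DLX1 held 1 TGAGTCA, present in 4.95% of RefSeq promoters, in a promoter with no base in a peak. All 300 promoter bases of DLX6 and of MSX1 lay in their peaks, and none of DLX2 did. These matches describe the letters of the windows and do not show binding.

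The cell line was compared with lineage markers. A promoter peak was present at 6 of 8 melanocyte lineage genes (MITF, SOX10, PMEL, MLANA, DCT and S100B, but not TYR and TYRP1), a lineage whose programme CCS shares. The interval of this share (75%, 40.9 to 92.9) holds the 63.4% of all protein-coding genes. Only 1 of the 8 had a CpG-rich start, beside 12966 of the 20015 protein-coding genes. This background is therefore an unlike one, and the difference was not tested. A promoter peak was present at 1 of 13 markers of other cells (7.69%, 1.37 to 33.3), namely SP7, an osteoblast factor. The 63.4% of all protein-coding genes lay above that interval. Only 4 of the 13 had a CpG-rich start, so this background is again an unlike one, and the difference was not tested. The GABAergic neuron markers GAD1, GAD2 and SLC32A1 had none, and neither did the osteoblast markers BGLAP and IBSP.

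The homeobox genes of the same class had promoter peaks in 9 of 40 cases (22.5%, 95% Wilson interval 12.3 to 37.5), beside 4 of 8 for the DLX and MSX genes. Among them were EN2, HHEX, HLX, LBX2 and VAX2. The coverage of the start-site windows at DLX5 (30.0%) and DLX6 (26.8%) stood below that of EN2 (82.6%) and LBX2 (32.6%) and above that of VAX2 (17.8%), HLX (14.5%) and HHEX (11.6%). The shares were 14 of 39 (35.9%, 22.7 to 51.6) for the HOX genes and 3 of 9 (33.3%, 12.1 to 64.6) for the PAX genes. The HOX genes lie in clusters and neighbours can share a peak, so they are not independent and their interval is too narrow. The interval of the DLX and MSX genes overlapped that of each of these 3 lists. The 63.4% of all protein-coding genes lay above the intervals of the same-class and HOX genes and inside that of the PAX genes. CpG-rich starts were found at 34 of the 40 same-class genes, 32 of the 39 HOX genes and 7 of the 9 PAX genes. Among all CpG-rich protein-coding genes, 82.8% had a promoter peak. The differences were not tested.

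In the BMP pathway, a promoter peak was present at 19 of 24 genes (79.2%, 59.5 to 90.8), an interval that holds both the 63.4% of all protein-coding genes and the 82.8% of CpG-rich ones. Of the 24 genes, 22 were CpG-rich. The 19 with a promoter peak were 6 of 6 receptors, 4 of 4 SMAD transducers, all 4 of the ID targets, 4 of 5 inhibitors and 1 of 5 ligands. The ligand with a peak was BMP2, and BMP4, BMP5, BMP6 and BMP7 had none. The inhibitor without one was GREM1. The ID genes, which encode inhibitors of basic helix-loop-helix factors, had high coverage of their start-site windows, from 62.2% for ID4 to 95.3% for ID3, beside 30.0% for DLX5.

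Factors that act beside DLX5 and the MSX genes at the neural plate border and in the neural crest carried promoter peaks at 6 of 12 genes (50%, 25.4 to 74.6), an interval that holds the 63.4% of all protein-coding genes. Of the 12 genes, 9 were CpG-rich, and 4 of these 9 had a promoter peak. The 82.8% of all CpG-rich protein-coding genes lay above the interval, and the difference was not tested. TFAP2A, PAX3, SNAI2, SOX10, ETS1 and TWIST1 had a promoter peak. TFAP2B, PAX7, ZIC1, GBX2, FOXD3 and SOX9 had none. The start-site windows of SOX10 and TFAP2A were covered to 96.8% and 57.0%, more than that of DLX5. PAX3, at 1.41%, was covered less than MSX1. Genes placed upstream, downstream or as partners of DLX and MSX factors carried promoter peaks at 4 of 16 (25%, 10.2 to 49.5), beside the same 63.4%, and 9 of the 16 were CpG-rich. In the jaw group EDN1, EDNRA and HAND2 had none. In the forebrain group NRP2, a semaphorin receptor gene, was the only one of 8. In the bone and partner group RUNX2, SP7 and MAGED1 had one, the last encoding a protein that binds DLX5 and MSX2.

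**Figure D4:**
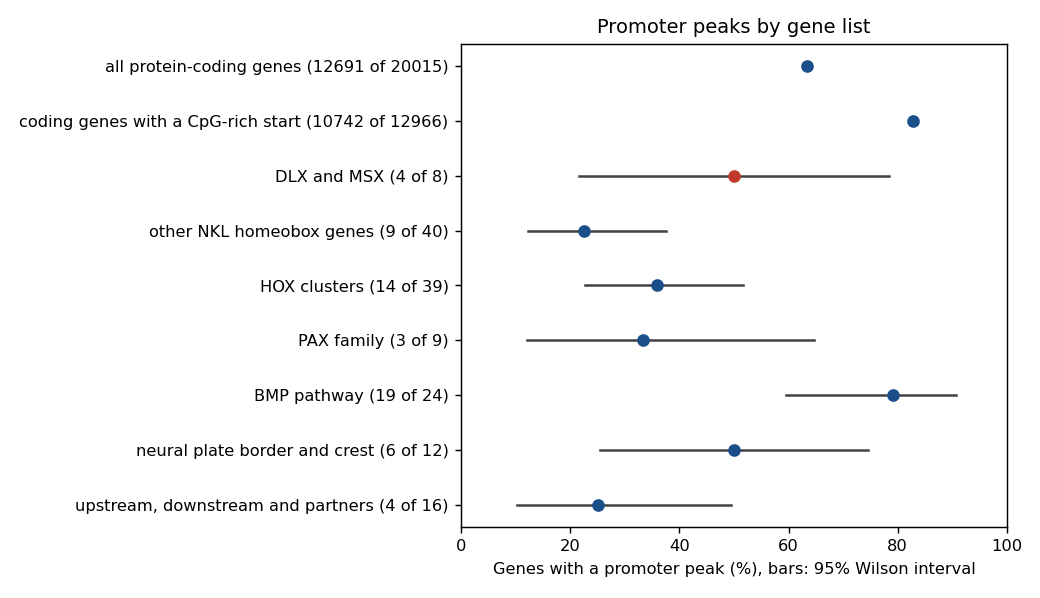
Share of genes with a promoter peak (horizontal axis, %) in the DLX and MSX genes (red), 6 gene lists and the protein-coding background, with 95% Wilson intervals as bars and counts beside the names. The DLX and MSX genes at 50% lie between the other NKL homeobox genes at 22.5% and all protein-coding genes at 63.4%, with an interval from 21.5 to 78.5.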

How the data were processed

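H3K27ac ChIP and Input libraries of SU-CCS-1 (3 each, from the sample titles) were sequenced by the authors. Per the labels and methods, reads were aligned to hg38 with BWA (0.7.10-r789), and peaks were called in broad mode with MACS2 (2.2.6) against input. The authors deposited 1 BED list with 4 columns, whose values are positions and names. Whether reads or peaks of the replicates were merged is not given in the sources used here. Broad calling joins neighbouring enriched stretches, so width depends on signal and on the joining rule.

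Peaks were intersected with GENCODE version 44 (overlap of at least 1 base; genes shared by X and Y counted once), stitched within 12.5 kb and ranked by summed width. Motifs were scanned on hg38 with python 3.11.15, numpy 2.4.6 and pysam 0.24.0, and Wilson intervals were computed with scipy 1.17.1. The counting steps were tested on simulated data. Coordinates are counted from 1. No test was made, since the list holds no replicate values. Named genes were all 8 members, the listed genes, genes overlapping or nearest to a peak of a member locus, and genes at the nearest peaks. 1 listed gene is not reported here by name. Genes in the stretches without peaks were named after their values were seen. The members and lists were chosen with earlier results of these data known. Alternatives varied windows, flanks, widths, start sites, overlap, stitching and the stretch scanned for motifs.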

Additional observations from a re-analysis of the deposited data

How the results depend on the processing

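In all, 39 alternatives were computed for 12 results, 6 of them chosen after seeing the data, and 25 left the value as it was or moved it little. The promoter count of 4 members held with a 1 kb window, with start sites of protein-coding transcripts alone and with midpoints. Among the widest 50% of peaks (at least 1060 bases) and the widest 25% (at least 1760 bases), 2 members kept a promoter peak and 2 a gene body peak, in each case DLX5 and DLX6, while the background fell to 48.9% and 26.7% of protein-coding genes (5340 genes for the latter). These settings leave out the narrow MSX peaks by construction. The number of peaks in the loci changed from 5 to 8 with 100 kb flanks, to 3 and 2 with the widest 50% and 25%, and to 10 when peaks were assigned by nearest start (an added alternative). The share of locus bases in peaks changed from 1.23% to 2.57% with 20 kb flanks, 0.840% with 100 kb flanks and 0.971% with the widest 50%. Stitched regions that overlap a member body went from 3 to 0 when peaks wholly within 2.5 kb of any start were left out, a setting that keeps 1 of the 5 peaks, the intergenic one between DLX6 and DLX5, and motif matches from 2 to 0 in the central 200 bases. No paired analysis was possible because the list has no column per replicate. The list gives neither the depth at each site nor the replicate spread, so a missing peak sets no limit on acetylation.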

Other observations

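Assignment by nearest protein-coding start site, chosen after seeing the data, gave the members 10 peaks, of which 5 lay beyond 50 kb. MSX2 had 5, DLX5 and DLX6 had 2 each, MSX1 had 1, and DLX1 to DLX4 had 0, beside a median of 1 over protein-coding genes. The 4 peaks of MSX2 beyond 50 kb lay together at chr5:174410121-174419700, within 9.58 kb and 305 kb from MSX2. All 4 overlapped the lncRNA LINC01411. They measured 1100, 1660, 2650 and 1350 bases, and their summed width of 6.76 kb exceeded the 5.58 kb of the DLX5 and DLX6 region. As 1 stitched region they ranked 1160 of 17049 by summed width. The list holds no contact data that would tie these peaks to MSX2.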
